A study of Mus musculus with 4 samples.

Results

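The nuclear-encoded subunits of the respiratory chain were followed in T cells and Siglech+ cells of B16 melanomas from WT and VISTA-KO mice. Members were chosen by symbol: names that start with Nduf followed by a, b, c, s or v and a digit (complex I), Sdha to Sdhd (complex II), Uqcr (complex III), Cox4 to Cox8 (complex IV) or Atp5 (complex V), leaving out names that end in -ps. This gave 84 of the 32285 genes in the tables, of which 37 belong to complex I, 4 to complex II, 8 to complex III, 18 to complex IV and 17 to complex V. VISTA-KO mice carried Vsir fl/fl, the floxed gene for VISTA, together with CD4-Cre, and their WT littermates carried Vsir fl/fl without Cre. This Cre is switched on in developing thymocytes, so it acts on CD8 as well as CD4 T cells. Mice of both genotypes were 6 to 8 weeks old, received a peptide vaccine on day 3 and 100 µg of anti-CTLA-4 on days 4 and 8 after inoculation of the tumor, and had their tumor-infiltrating CD4+ and CD8+ cells sorted together on day 18 after treatment. The tumors of 5 to 6 mice were pooled per genotype and read as 1 library, so there is no replicate, the spread between mice is unknown and no difference was tested. Intervals below are exact 95% Poisson intervals or, for a ratio, exact conditional intervals, and they cover counting error only.

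The level of Vsir itself did not separate the libraries. It stood at 112 CPM in CD8 cells of both, where CPM is the count of UMIs (tags that mark single RNA molecules) scaled to a common total per cell kind and library, at 114 and 120 CPM in conventional CD4 cells and at 114 and 118 CPM in regulatory cells of the libraries labelled WT and VISTA-KO, and at 69.5 CPM (59.7 to 80.5) and 50.3 CPM (39.4 to 63.4) in Siglech+ cells. The sources used here do not say which exons are floxed, and each tag reads 1 end of a transcript, so these counts do not check the genotype. WT and VISTA-KO below therefore stand for the library labelled so, and every direction between them rests on that label.

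The respiratory chain sits in the inner mitochondrial membrane. Complexes I and II take electrons from NADH and succinate, complex III passes them to cytochrome c, complex IV hands them to oxygen, and complex V makes ATP from the proton gradient that complexes I, III and IV build up. Most subunits are encoded in the nucleus and a small core in mitochondrial DNA, so that each complex except complex II needs both genomes. Resting T cells have few, sparsely active mitochondria, and activated T cells build more of them as they grow and divide.

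Cells with at least 600 detected genes were sorted into 4 kinds by their own transcripts. Siglech+ cells had at least 2 Siglech UMIs and were taken first. CD8 cells had Cd8a or Cd8b1 and no Cd4, conventional CD4 cells had Cd4 and no Foxp3, and regulatory cells had both Cd4 and Foxp3. The WT library gave 5482 CD8, 1661 conventional CD4, 1491 regulatory and 221 Siglech+ cells, and the VISTA-KO library gave 4301, 2983, 1260 and 138. Median depth was 3922 to 9181 UMIs per cell in the 4 WT kinds and 4192 to 9486 in the VISTA-KO kinds. The widest gap was in regulatory cells, with 8739 in WT against 5908 in VISTA-KO. The 2 libraries shared 145 cell barcodes.

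Marker levels by kind were as follows. The regulatory list (Foxp3, Il2ra, Ikzf2, Ctla4 and Tnfrsf4) summed to 2933 and 3674 CPM in the regulatory cells of the WT and the VISTA-KO library and to between 433 and 641 in the other T cells. Klk1, Ly6d and Ccr9, which mark plasmacytoid dendritic cells, reached 832 to 2463 CPM in Siglech+ cells and at most 2.40 CPM in the T cells. Siglech+ cells also held T cell transcripts, with Cd3e at 401 CPM in WT against 210 CPM in VISTA-KO, and 94 of 221 and 42 of 138 of them had a Cd3d, Cd3e or Cd3g UMI. Conventional CD4 cells held Cd8a and Cd8b1 at 894 CPM in WT against 441 CPM in VISTA-KO, beside 2584 and 2461 CPM in CD8 cells. Regulatory cells held them at 848 and 387 CPM, and Siglech+ cells at 990 and 716 CPM. The 4 melanoma markers (Pmel, Mlana, Tyrp1 and Dct) stood on different sides by kind. They summed to 10.3 CPM in WT and 197 in VISTA-KO CD8 cells, and to 225 and 15.9 in conventional CD4 cells. In regulatory cells they summed to 5.76 and 192, and in Siglech+ cells to 2.73 and 7.69. There were 6 WT and 8 VISTA-KO cells with at least 3 such UMIs. These cells differed in size, and the 1 among WT regulatory cells held 5355 UMIs, below the median of 8739 for that kind. In VISTA-KO CD8 cells 3 of them held 1.06% of all UMIs, and in VISTA-KO regulatory cells 2 of them held 1.22%, with 4.40% and 4.10% of their UMIs from the respiratory chain genes, so results are also given without these cells.

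Respiratory chain genes took a similar share of the transcriptome in every kind, and the share was slightly lower in the library labelled VISTA-KO, though in CD8 cells not under every scaling. In CD8 cells the 84 genes made up 2.29% of UMIs in WT and 2.25% in VISTA-KO. In conventional CD4 cells they made up 2.14% and 2.00%, in regulatory cells 2.24% and 2.08%, and in Siglech+ cells 2.35% and 2.28%. The ratio of VISTA-KO over WT was 0.984 (0.981 to 0.988) in CD8, 0.938 (0.933 to 0.943) in conventional CD4, 0.927 (0.922 to 0.932) in regulatory and 0.969 (0.956 to 0.982) in Siglech+ cells. Without the cells that carried melanoma markers these ratios were 0.975, 0.945, 0.916 and 0.970. With scaling by the median of ratios in place of CPM the CD8 difference turned, from -0.02 to 0.01 on the log2 scale, and the other 3 kinds stayed lower in VISTA-KO. The median cell showed the same order, with 2.13% against 2.07% in CD8, 1.98% against 1.92% in conventional CD4, 2.09% against 1.97% in regulatory and 2.36% against 2.27% in Siglech+ cells. Single cells ranged far more widely, with percentiles 5 and 95 at 1.26% and 2.88% in WT CD8 cells.

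**Figure D1:**
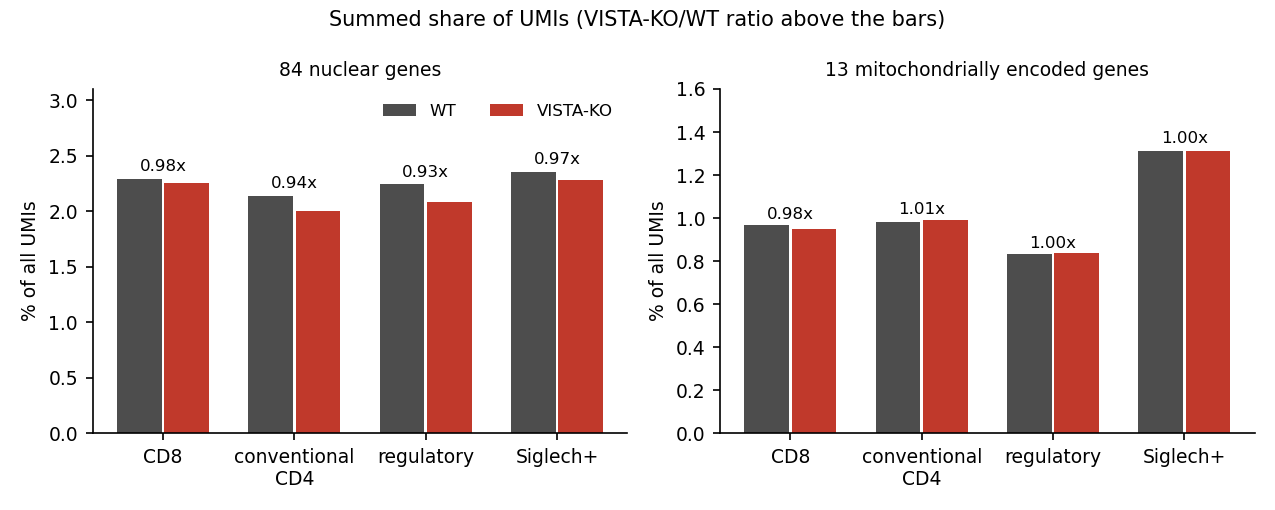
Bars give the share of all UMIs, in percent, that came from the 84 nuclear genes (left) and from the 13 mitochondrially encoded genes (right) in each cell kind of the WT (grey) and VISTA-KO (red) library, with the ratio of VISTA-KO over WT above each pair. The nuclear share was lower in VISTA-KO in all 4 kinds, most in regulatory cells (2.24% against 2.08%), while the mitochondrial share differed by under 2% of its value.

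All but a few of the genes were well measured. In each T cell kind 76 of the 84 genes reached 20 CPM in at least 1 library, and in Siglech+ cells 77 did. The other members are forms that other tissues use. Cox4i2 had 21 UMIs over all kinds and both libraries, Cox6b2 193, Cox7a1 88 and Ndufa4l2 1, and Cox7b2, Cox8b and Cox8c had none, which allows up to 0.0816 CPM in WT CD8 cells (3 UMIs). Cox6a2 was at 0.285 to 1.17 CPM in T cells and passed in Siglech+ cells alone. Among the genes that passed, levels in WT CD8 cells ran from 37.7 CPM (Ndufs1) to 1130 CPM (Cox8a), with a median of 223 CPM. UMIs count molecules and were not scaled by gene length.

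The difference between the genotypes was small for the genes that T cells use. Of the 76 genes, 0 differed by more than 25% (the higher level over the lower, with 5 CPM added to each) in CD8, conventional CD4 or regulatory cells, where 4.17%, 7.59% and 11.7% of all genes tested did. The nearest to it was Sdhb in conventional CD4 cells, whose ratio without the added 5 CPM was 0.798. In Siglech+ cells 1 of 77 did, Cox6a2, against 22.5% of all genes. Its log2 ratio of 0.33 fell to 0.05 in Siglech+ cells without a Cd3d, Cd3e or Cd3g UMI. The shares over all genes were not matched to the members for level. All genes entered from 20 CPM, where counting error is larger. The members that passed had a median of 223 CPM in WT CD8 and 228 CPM in WT Siglech+ cells. The number of members past this size in Siglech+ cells moved both ways. It was 0 without cells with 2 or more beta chains or with scaling that left out mitochondrial, ribosomal and receptor genes. It was 3 with stricter gates, 2 with each cell weighted equally and 14 with cells thinned to 2000 UMIs. In regulatory cells 4 were past it when thinned. Counted at any size, 49 of 76 were lower in VISTA-KO in CD8 cells (59.4% of all genes were), 69 of 76 in conventional CD4 cells (59.7%), 69 of 76 in regulatory cells (51.4%) and 58 of 77 in Siglech+ cells (53.5%). With scaling by the median of ratios in place of CPM, 38 of 76 were lower in CD8 and 60 of 76 in conventional CD4 cells, and without the cells that carried melanoma markers 58 and 67 were. The shares over all genes were not counted under these alternatives, and the shares above do not serve for them. The median log2 ratio over the genes was -0.03 in CD8, -0.11 in conventional CD4, -0.12 in regulatory and -0.07 in Siglech+ cells, against -0.03, -0.04, -0.01 and -0.02 over all genes tested (the log2 scale, with 5 CPM added to each level). In CD8 cells the members thus had the same median as all genes, and in conventional CD4 and regulatory cells a lower one. Of the 76 genes, 45 were lower in all 3 T cell kinds and 2 in none of them, Ndufa2 and Atp5md. How many of all genes were lower in all 3 or in none was not counted, so these counts have no background.

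**Figure D2:**
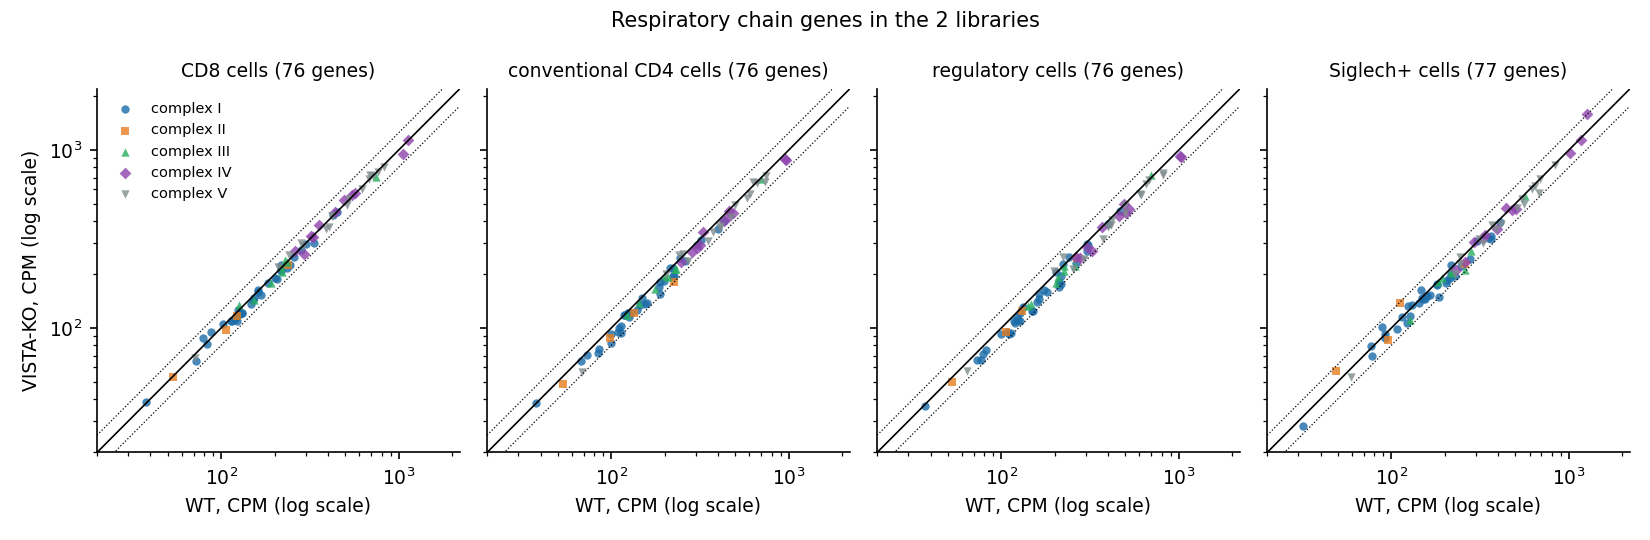
Each point is 1 nuclear respiratory chain gene with at least 20 CPM in 1 library, with its WT level on the x axis and its VISTA-KO level on the y axis, both in CPM on log scales and marked by complex. The solid line is equality and the dotted lines stand 25% apart from it. Before 5 CPM is added, Sdhb in conventional CD4 cells (a ratio of 0.798) lies at the lower dotted line and the other points of the 3 T cell kinds lie between the lines, below the diagonal for 69 of 76 genes in conventional CD4 and in regulatory cells.

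By complex, the lowest ratio was that of complex II in conventional CD4 cells. Succinate dehydrogenase, which also serves the citrate cycle, took 0.0512% of UMIs in WT and 0.0438% in VISTA-KO there, with a ratio of 0.856 (0.825 to 0.888), against 0.949 (0.928 to 0.970) in CD8, 0.926 (0.894 to 0.958) in regulatory and 0.988 (0.902 to 1.08) in Siglech+ cells. Its iron-sulfur subunit Sdhb was at 226 and 181 CPM in WT and VISTA-KO conventional CD4 cells, with a ratio of 0.798 (0.755 to 0.845) and the lowest of any member there. In CD8 cells Sdhb was at 238 and 227 CPM, in regulatory cells at 268 and 248 CPM and in Siglech+ cells at 260 and 229 CPM. The flavoprotein subunit Sdha was at 134 and 121 CPM in conventional CD4 cells, and the membrane anchors Sdhc and Sdhd were at 53.2 and 48.4 CPM and at 97.8 and 87.7 CPM. All 4 Sdh genes were lower in VISTA-KO in each T cell kind, as were 59.4% of all genes in CD8, 59.7% in conventional CD4 and 51.4% in regulatory cells. In Siglech+ cells Sdha (112 and 139 CPM) and Sdhc (48.8 and 57.3 CPM) were higher in VISTA-KO. Sdha had a ratio of 1.24 (1.03 to 1.49) and Sdhc 1.17 (0.878 to 1.56), whose interval spans equality.

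Complex I had a ratio of 0.967 (0.961 to 0.973) in CD8, 0.928 (0.918 to 0.938) in conventional CD4, 0.920 (0.911 to 0.929) in regulatory and 0.943 (0.919 to 0.968) in Siglech+ cells. Ndufs6, an accessory subunit of the arm that takes electrons from NADH, was among the 5 lowest members of all 3 T cell kinds. It stood at 123 CPM in WT against 110 CPM in VISTA-KO CD8 cells, at 113 and 93.4 CPM in conventional CD4 cells and at 113 and 93.3 CPM in regulatory cells. Ndufb8, a subunit of the membrane arm, was at 189 and 155 CPM in conventional CD4 cells and at 216 and 177 CPM in regulatory cells. The lowest member in regulatory cells was Ndufb10, also of the membrane arm, at 210 and 169 CPM, with a ratio of 0.803 (0.756 to 0.851). Ndufs7, an iron-sulfur subunit, was at 150 and 125 CPM there, and Ndufb2 was at 99.8 and 82.0 CPM in conventional CD4 cells. In CD8 cells the low side held Ndufa6 (332 and 300 CPM) and the iron-sulfur subunit Ndufv2 (168 and 153 CPM), and the high side Ndufa5 (79.1 and 87.9 CPM, a ratio of 1.11, 1.05 to 1.17) and Ndufc1 (87.2 and 94.4 CPM). Ndufa7 was near equality, at 244 and 247 CPM in conventional CD4 and 241 and 250 CPM in regulatory cells, as was Ndufv3 at 223 and 229 CPM in regulatory cells. In Siglech+ cells Ndufv2 had the lowest ratio, 0.807 (0.684 to 0.950, 186 and 150 CPM), followed by Uqcrb of complex III at 0.809 (0.704 to 0.928). Ndufa11 (228 and 196 CPM) and Ndufa4 (366 and 317 CPM) were also on the low side there, but turned to log2 ratios of 0.05 and 0.01 with cells thinned to 2000 UMIs. On the high side were Ndufb2 (89.0 and 101 CPM, a ratio of 1.14, 0.918 to 1.41) and Ndufs5 (146 and 164 CPM, 1.12, 0.947 to 1.32), whose intervals span equality. Ndufa4 is carried by its symbol among complex I here and is also described as a part of complex IV.

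Complex III, which oxidizes ubiquinol, was the least different of the 5 complexes in conventional CD4 and regulatory cells, with ratios of 0.961 (0.944 to 0.979) and 0.955 (0.938 to 0.972), and had the lowest ratio of the 5 in Siglech+ cells, 0.941 (0.899 to 0.986). In CD8 cells its ratio was 0.979 (0.969 to 0.990), and 4 of its 8 genes were lower and 4 higher, where 59.4% of all genes were lower. Uqcr11 was on the high side in CD8 cells (126 and 135 CPM), and Uqcrh, the hinge protein at cytochrome c1, was at 700 and 719 CPM in regulatory cells, with a ratio of 1.03 (0.998 to 1.06).

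Complex IV differed by kind. In CD8 cells its ratio was 0.993, with 8 of 11 genes higher in VISTA-KO and 3 lower, where 59.4% of all genes were lower. The ratio was 0.936 (0.926 to 0.947) in conventional CD4 and 0.917 (0.907 to 0.927) in regulatory cells. There 10 of 11 genes were lower in each, as were 59.7% and 51.4% of all genes. In Siglech+ cells it was 1.02 (0.996 to 1.05), the 1 complex with a ratio above 1 there, and 0.967 (0.940 to 0.994) without Cox6a2. Among the 3 that were lower in CD8 cells were the 2 lowest members of all, Cox7a2l at 293 and 259 CPM (a ratio of 0.884, 0.858 to 0.911) and Cox4i1 at 1060 and 951 CPM (0.897, 0.883 to 0.911). Cox7a2l encodes a factor described as joining complexes III and IV into supercomplexes. Whether the form that these mice carry does so was not examined. Cox4i1 encodes a nuclear subunit of complex IV. In regulatory cells Cox6a1 was the lowest of complex IV, at 323 and 270 CPM, a ratio of 0.838 (0.799 to 0.878). Cox7c was on the high side in conventional CD4 cells, at 329 and 346 CPM.

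Complex V had ratios of 0.995 (0.990 to 1.00) in CD8, 0.947 (0.938 to 0.956) in conventional CD4, 0.933 (0.925 to 0.942) in regulatory and 0.950 (0.928 to 0.973) in Siglech+ cells. Atp5md, which encodes the small DAPIT subunit of ATP synthase, was higher in VISTA-KO in all 3 T cell kinds, as Ndufa2 of complex I was by at most 0.07 on the log2 scale. Atp5md stood at 240 CPM in WT against 258 CPM in VISTA-KO CD8 cells, at 240 and 256 CPM in conventional CD4 cells and at 223 and 251 CPM in regulatory cells, with ratios of 1.08 (1.04 to 1.11), 1.07 (1.01 to 1.12) and 1.13 (1.07 to 1.19). In Siglech+ cells it was at 227 and 200 CPM, lower in VISTA-KO. Atp5k, which encodes another small membrane subunit, was on the low side in conventional CD4 cells (68.2 and 56.8 CPM), and Atp5e, of the central stalk, was at 630 and 662 CPM there. Atp5mpl was near equality in regulatory cells, at 199 and 208 CPM. The 3 genes for the c subunit of the rotor ring encode the same mature protein and did not move alike. Atp5g1 was higher in VISTA-KO in CD8 cells (281 and 302 CPM), near equal in conventional CD4 cells (255 and 260 CPM) and lower in regulatory cells (252 and 214 CPM). Atp5g2 was at 825 and 807, 742 and 710, and 812 and 721 CPM in these kinds, and Atp5g3 at 762 and 754, 736 and 664, and 817 and 741 CPM.

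The promoters of the members were read for the letters of 3 factors that are known to act on respiratory chain genes. RefSeq promoters of GRCm38.p6, from 250 bases before to 50 bases after the first listed start, were matched for 68 of the 84 genes. The NRF1 letters GCGCATGC, on either strand, were in 10 of the 68 (14.7%) and in 2.80% of all 27025 promoters. The ETS letters CCGGAAG were in 16 (23.5%, against 9.12%), and the YY1 letters ATGGCGGC in 6 (8.82%, against 2.38%). In all 27 of the 68 (39.7%) held at least 1 of the 3, as did 13.2% of all promoters. Both the NRF1 and the ETS letters were in 5, Sdhb, Atp5k, Cox6a1, Atp5l and Uqcr11, or 7.35% against 0.511% of all promoters. All promoters were counted whether or not their genes were expressed in these cells, while 64 of the 68 matched members were. The shares are therefore not matched for expression. A match describes the letters and not a site that a factor used in these cells. The 250 bases before the start are printed for Sdhb and Cox6a1, which hold both motifs and were the lowest of conventional CD4 cells and of complex IV in regulatory cells, and for Atp5md, the highest in both kinds. This choice is no measure of a link between the letters and the ratios. Uqcr11, which holds both motifs, was among the 5 highest members in CD8 cells, and Ndufb10 and Ndufb8, among the 5 lowest in regulatory cells, hold none of the 3. Capitals mark NRF1 and ETS letters on either strand. The NRF1 letters begin 54 bases before the Sdhb start, and its ETS letters are not within the 250 bases shown. In Cox6a1, NRF1 letters on the 2 strands overlap from 162 bases before the start and ETS letters begin at 16 bases. The 250 bases of Atp5md hold neither, and its ETS letters are likewise not within them.
Sdhb, chr4:140961021-140961270, plus strand: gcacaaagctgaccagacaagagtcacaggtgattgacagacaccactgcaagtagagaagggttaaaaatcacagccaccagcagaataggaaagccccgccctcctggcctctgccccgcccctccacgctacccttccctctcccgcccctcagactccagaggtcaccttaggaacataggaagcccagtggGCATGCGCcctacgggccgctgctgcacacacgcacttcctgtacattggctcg
Cox6a1, chr5:115348959-115349208, minus strand: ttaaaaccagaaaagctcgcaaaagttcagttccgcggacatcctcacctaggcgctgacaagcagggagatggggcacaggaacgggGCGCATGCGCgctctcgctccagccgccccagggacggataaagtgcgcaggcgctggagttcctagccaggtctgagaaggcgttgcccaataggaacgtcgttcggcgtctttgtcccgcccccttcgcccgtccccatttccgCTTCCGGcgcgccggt
Atp5md, chr19:47090648-47090897, minus strand: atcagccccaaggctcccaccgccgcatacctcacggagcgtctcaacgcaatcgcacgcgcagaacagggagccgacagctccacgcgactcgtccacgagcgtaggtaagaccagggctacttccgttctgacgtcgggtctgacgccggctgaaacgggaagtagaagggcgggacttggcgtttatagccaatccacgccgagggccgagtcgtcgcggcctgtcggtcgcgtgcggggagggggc

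Summed over all CD8 cells, the mitochondrially encoded subunits were lower in VISTA-KO by about as much as the nuclear ones, though not in each state (given below). In sum they were not lower in conventional CD4 or regulatory cells, where the nuclear ones were. In the dividing cells of both kinds they were lower. Without the cells that carried melanoma markers this held only in conventional CD4 cells, at 1.02% of UMIs in WT and 0.937% in VISTA-KO. In dividing regulatory cells the shares were then 0.865% and 0.867%. The 13 genes made up 0.966% of UMIs in WT and 0.948% in VISTA-KO CD8 cells, 0.980% and 0.990% in conventional CD4, 0.834% and 0.836% in regulatory, and 1.31% in both libraries in Siglech+ cells. The ratios were 0.981 (0.976 to 0.986), 1.01 (1.00 to 1.02), 1.00 (0.993 to 1.01) and 0.997 (0.979 to 1.02). Single mitochondrial genes went both ways. In CD8 cells mt-Nd1 was the highest, at 306 CPM in WT against 336 CPM in VISTA-KO, and mt-Atp8 the lowest, at 185 and 116 CPM. The low level of mt-Atp8 in VISTA-KO recurred in every kind, at 190 and 125, 153 and 101, and 214 and 129 CPM in conventional CD4, regulatory and Siglech+ cells. The other mitochondrial gene of complex V, mt-Atp6, was higher in VISTA-KO in every kind. It stood at 1502 and 1629 CPM in CD8, 1553 and 1711 in conventional CD4, 1261 and 1404 in regulatory, and 1920 and 2077 in Siglech+ cells. Why these 2 genes parted was not tested, nor whether the libraries differ in where tags fall on a transcript.

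Other nuclear genes of the mitochondrion were also lower in sum in VISTA-KO T cells. The mitochondrial ribosome, which translates the mitochondrial core, had a ratio of 0.947 (0.941 to 0.953) in CD8, 0.921 (0.911 to 0.931) in conventional CD4, 0.894 (0.884 to 0.904) in regulatory and 0.948 (0.922 to 0.974) in Siglech+ cells. Of its measured genes 62 of 73, 63 of 73, 70 of 70 and 51 of 73 were lower in these kinds, where 59.4%, 59.7%, 51.4% and 53.5% of all genes were. In CD8 cells its lowest gene was Mrpl27 (53.1 and 43.8 CPM) and its highest Mrps5 (32.1 and 35.2 CPM). Assembly factors and carriers had ratios of 0.976, 0.908 and 0.924 in the T cell kinds, with 18 of 26, 21 of 27 and 18 of 26 genes lower, where 59.4%, 59.7% and 51.4% of all genes were. Among them Sdhaf1, an assembly factor of complex II, differed by more than 25% in CD8 cells (60.1 and 36.8 CPM) and stood at 96.7 and 52.5, 149 and 111, and 78.1 and 53.8 CPM in conventional CD4, regulatory and Siglech+ cells. Cox20, which helps to build complex IV, was the highest of that list in CD8 cells, at 96.8 and 120 CPM. Cycs, the electron carrier cytochrome c, was at 197 and 225 CPM in CD8, 184 and 178 in conventional CD4, 190 and 191 in regulatory, and 169 and 200 in Siglech+ cells. Genes of the citrate cycle had ratios of 0.975, 0.936 and 0.946 in the T cell kinds, from Suclg1 (72.1 and 63.3 CPM in CD8 cells) to Suclg2 (29.5 and 31.5 CPM). In Siglech+ cells their ratio was 1.03 (0.971 to 1.09), whose interval spans equality. There 10 of 16 were higher, 2 of them by more than 25%, and 1 was lower by more than 25%. Of all 6405 genes tested in Siglech+ cells 2980 were higher, 663 of them by more than 25%, and 775 were lower by more than 25%.

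Known regulators of mitochondrial genes were mostly low in number of UMIs and did not move as a group. Yy1 was among the higher ones, at 119 and 113 CPM in CD8 cells. Their sum had a ratio of 0.993 (0.970 to 1.02) in CD8, 0.978 (0.940 to 1.02) in conventional CD4, 1.05 (1.01 to 1.09) in regulatory and 0.858 (0.756 to 0.972) in Siglech+ cells. In these kinds 4, 3, 3 and 5 of 7 measured genes were lower, where 59.4%, 59.7%, 51.4% and 53.5% of all genes were. Esrra, a nuclear receptor that acts on respiratory chain genes, was higher in VISTA-KO, at 19.9 and 23.2 CPM in CD8, 18.9 and 24.6 in conventional CD4 and 20.1 and 24.2 in regulatory cells. In CD8 and conventional CD4 cells it reached 20 CPM in VISTA-KO only. Gabpb1 was higher in VISTA-KO in every kind, at 33.2 and 36.7, 36.2 and 44.6, 47.5 and 63.6, and 22.7 and 29.4 CPM, and by more than 25% in regulatory cells. Gabpa went both ways, at 23.0 and 25.8 CPM in CD8 and 28.2 and 24.9 in conventional CD4 cells. Tfam, which packs and transcribes mitochondrial DNA, was at 32.1 and 30.7 CPM in CD8 cells and 30.2 and 30.5 CPM in conventional CD4 cells. Ppargc1b was at 9.58 and 10.1 CPM in CD8 cells, and Ppargc1a was at 0.163 and 2.51 CPM there and at most 0.391 CPM elsewhere. Myc, a driver of growth, was at 98.1 and 88.9 CPM in CD8, 72.6 and 47.2 in conventional CD4, 65.5 and 61.7 in regulatory, and 23.0 and 6.99 in Siglech+ cells.

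In the 3 T cell kinds the share of respiratory chain transcripts climbed with the number of UMIs in a cell. In WT CD8 cells it was 1.71% below 3000 UMIs, 2.09% up to 6000, 2.25% up to 12000 and 2.59% above, and in VISTA-KO 1.54%, 1.97%, 2.26% and 2.73%. The ratio of VISTA-KO over WT in CD8 cells thus passed from 0.901 (0.884 to 0.919) through 0.941 and 1.00 to 1.06 (1.05 to 1.06), or 1.03 (1.02 to 1.04) without the cells that carried melanoma markers. So the small difference in the CD8 sum held both directions, lower in VISTA-KO in cells of low depth and higher in cells of high depth. In conventional CD4 cells the 4 ratios were 0.948, 0.972, 0.996 and 0.931, and in regulatory cells 0.893, 0.975, 0.959 and 0.984, the last being 0.956 without the cells that carried melanoma markers. In regulatory cells the ratio was below 1 in each of the 4 ranges. WT regulatory cells were deeper, and depth was not matched within a range, so its part in these ratios was not tested. Siglech+ cells were few at low depth, and in the ranges of 6000 to 12000 and above 12000 their ratios were 0.977 and 0.964. From 3000 UMIs upward their share showed no steady climb, at 2.59%, 2.36% and 2.34% in WT and 2.07%, 2.30% and 2.25% in VISTA-KO.

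**Figure D3:**
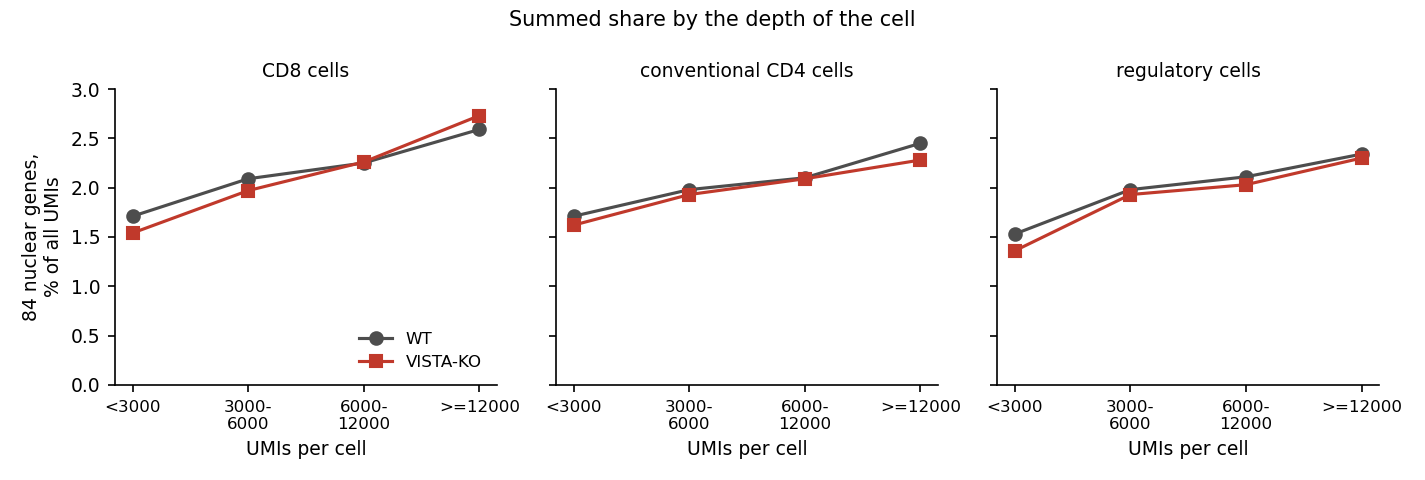
The share of UMIs from the 84 nuclear genes, in percent, is drawn for cells in 4 ranges of total UMIs per cell, with WT in grey and VISTA-KO in red. The share climbs with depth in all 3 T cell kinds of both libraries, and in CD8 cells the VISTA-KO line starts below WT (1.54% against 1.71%) and ends above it (2.73% against 2.59%).

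Dividing cells, those with at least 2 UMIs of Mki67 and Top2a together, had more of these transcripts than other cells. They made up 11.7% of WT and 12.9% of VISTA-KO CD8 cells, 10.2% and 7.17% of conventional CD4 cells and 27.2% and 13.5% of regulatory cells, so that WT and VISTA-KO differed most in regulatory cells. Dividing regulatory cells held 2.36% in WT and 2.32% in VISTA-KO (a ratio of 0.985, 0.976 to 0.994), and those not dividing 2.13% and 2.00% (0.939, 0.932 to 0.945). Without the cells that carried melanoma markers the ratio in dividing regulatory cells was 0.945. Dividing conventional CD4 cells held 2.47% and 2.26% (0.914, 0.904 to 0.925), and the others 2.02% and 1.96% (0.972, 0.965 to 0.978). The lower share in VISTA-KO thus stood in both fractions of both kinds, but these fractions were not matched for depth. Median depth in WT and VISTA-KO was 12296 and 8153 UMIs in dividing conventional CD4 cells, and 3728 and 4109 in the others. In regulatory cells it was 18033 and 11842 in dividing cells, and 6808 and 5504 in the others. How far depth set these shares, or the number of cells that reached the 2 UMIs for dividing, was not tested.

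CD8 cells were further split by genes that are no members, each cell entering the first state that it met. The order was dividing, then Pdcd1 and Havcr2, then Pdcd1 and Tcf7, then all others. Cells listed with Pdcd1 and Tcf7 were therefore not dividing and had no Havcr2, while those with Pdcd1 and Havcr2 may also hold Tcf7. Dividing cells had the highest share, 2.59% in WT and 2.62% in VISTA-KO, followed by cells with Pdcd1 and Havcr2, markers of exhausted cells, at 2.41% and 2.40%. Cells with Pdcd1 and Tcf7, the marks of progenitors of exhausted cells, held 2.12% and 2.05%, and all other CD8 cells held 2.12% and 2.04%. Dividing cells and cells with Pdcd1 and Havcr2 thus stood above the rest in both libraries. The ratio of VISTA-KO over WT was 0.967 (0.957 to 0.977) in cells with Pdcd1 and Tcf7, 0.965 (0.960 to 0.970) in the other cells and 0.996 (0.988 to 1.00) in cells with Pdcd1 and Havcr2. It was 1.01 (1.01 to 1.02) in dividing cells, where leaving out the cells that carried melanoma markers turned it to 0.985 (0.980 to 0.991). Dividing cells were deeper, with medians of 14027 and 10826 UMIs in WT and VISTA-KO, and so were cells with Pdcd1 and Havcr2, at 8072 and 7156. Cells with Pdcd1 and Tcf7 had 5198 and 5438, and the other cells 4226 and 4532. How far depth set the share in any of these states was not tested beyond the ranges above.

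The mitochondrially encoded genes did not follow this order. They were highest in cells with Pdcd1 and Tcf7, at 1.03% in WT and 1.06% in VISTA-KO, and stood at 0.978% and 1.00% in the other CD8 cells. They were lower in dividing cells, at 0.944% and 0.891%, and in cells with Pdcd1 and Havcr2, at 0.914% and 0.820%. The ratio of VISTA-KO over WT was 1.03 (1.01 to 1.04), 1.03 (1.02 to 1.03), 0.944 (0.934 to 0.953) and 0.897 (0.885 to 0.909) in these states as listed. So the CD8 sum held both directions. In conventional CD4 cells the ratio was 0.919 in dividing cells and 1.04 in the others, and in regulatory cells 0.978 and 1.03. Without the cells that carried melanoma markers the share in dividing regulatory cells was 0.865% in WT and 0.867% in VISTA-KO.

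**Figure D4:**
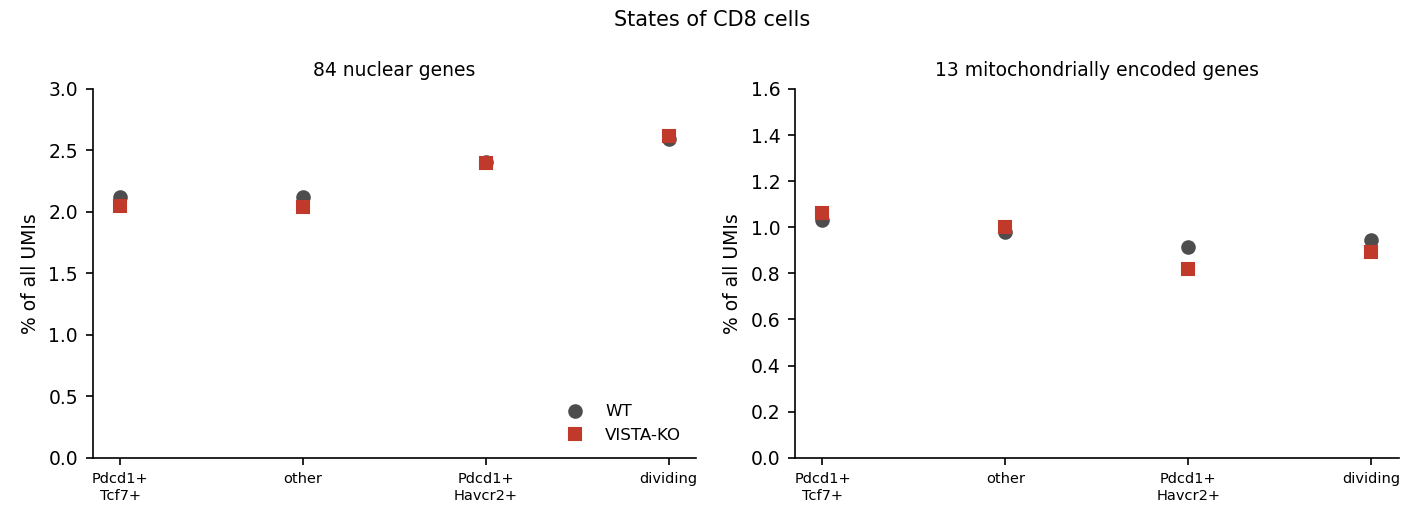
Points give the share of all UMIs, in percent, from the 84 nuclear genes (left) and the 13 mitochondrially encoded genes (right) in 4 states of CD8 cells, WT as grey circles and VISTA-KO as red squares. The nuclear share is highest in dividing cells (2.59% and 2.62%), and the mitochondrial share is highest in cells with Pdcd1 and Tcf7 (1.03% and 1.06%).

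Set beside CD8 cells of the same library, the other T cells had slightly less. The sum in conventional CD4 cells over CD8 cells was 0.934 (0.929 to 0.938) in WT against 0.890 (0.886 to 0.894) in VISTA-KO, and in regulatory cells 0.979 (0.976 to 0.983) and 0.922 (0.918 to 0.927). No member was past 1.5-fold in the same direction in both libraries, where 3.71% of all genes were for conventional CD4 and 7.26% for regulatory cells. These shares over all genes were not matched for level either. At any size, 64 of 76 members were lower in conventional CD4 cells in both libraries (33.2% of all genes) and 45 of 76 in regulatory cells (32.4%). Mitochondrially encoded genes were lower in regulatory than in CD8 cells, with ratios of 0.863 (0.858 to 0.868) in WT against 0.881 (0.874 to 0.888) in VISTA-KO, and all 12 that were tested were lower in both.

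Siglech+ cells had a summed share close to that of CD8 cells, with a different make-up of complex IV. Their sum over CD8 cells was 1.03 (1.02 to 1.04) in WT against 1.01 (0.999 to 1.02) in VISTA-KO, and without Cox6a2 it was 0.972 (0.964 to 0.980) and 0.940 (0.929 to 0.951). The direction rested on the scaling: on the log2 scale the sum over CD8 cells was 0.04 and 0.02, turned to -0.03 and -0.06 when mitochondrial, ribosomal and receptor genes were left out of the scaling, and was 0.16 and 0.14 with each cell weighted equally. Complex IV was at 1.16 (1.14 to 1.18) and 1.19 (1.17 to 1.22) with Cox6a2 and at 0.941 (0.925 to 0.957) and 0.916 (0.895 to 0.937) without it. Cox6a2 was the 1 member of 77 past 1.5-fold in both libraries, against 31.3% of all genes, and 38 of 77 were lower in both, against 46.5%. Here too the shares over all genes were not matched for level. Mitochondrially encoded genes were higher, with ratios over CD8 cells of 1.36 (1.34 to 1.37) in WT against 1.38 (1.36 to 1.40) in VISTA-KO. All 12 that were tested were higher in both, as were 2677 of all 6568 genes tested.

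Cox6a2 encodes the form of cytochrome c oxidase subunit VIa known from heart and skeletal muscle, and Cox6a1 the form found in most tissues. Cox6a2 was at 1262 CPM in WT against 1586 CPM in VISTA-KO Siglech+ cells, from 3231 and 2269 UMIs. It was at 0.517 and 0.322 CPM in CD8 cells (19 and 9 UMIs), at 0.411 and 1.17 CPM in conventional CD4 cells (4 and 18 UMIs) and at 0.285 and 0.422 CPM in regulatory cells (5 and 4 UMIs). The groups were far apart in both libraries. Over CD8 cells the ratio was 2441 (1561 to 4060) in WT against 4924 (2589 to 10781) in VISTA-KO. Cox6a1 was alike in all kinds, at 335 and 331 CPM in Siglech+ cells, 328 and 326 CPM in CD8, 316 and 293 CPM in conventional CD4 and 323 and 270 CPM in regulatory cells. Of the UMIs from the 2 genes, Cox6a2 gave 79.0% (77.8 to 80.3, Clopper-Pearson) in WT against 82.7% (81.3 to 84.1) in VISTA-KO Siglech+ cells.

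**Figure D5:**
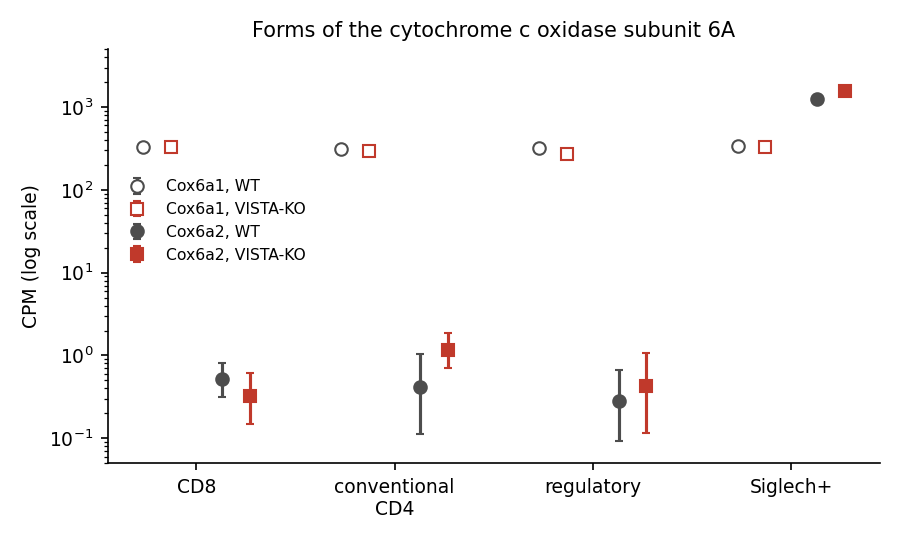
Levels of Cox6a1 (open symbols) and Cox6a2 (filled symbols) in CPM on a log scale are drawn for each cell kind of WT (grey circles) and VISTA-KO (red squares), with exact 95% Poisson intervals. Cox6a1 lies between 270 and 335 CPM in all 4 kinds, and Cox6a2 at 1262 and 1586 CPM in Siglech+ cells and at most 1.17 CPM in T cells.

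The expression of Cox6a2 was spread over the Siglech+ cells. The median cell had 12 UMIs in WT and 15 in VISTA-KO, and 25 of 221 and 15 of 138 cells had none. After each cell was thinned to 2000 UMIs, leaving out 1 shallower cell in each library, 78.2% (72.1 to 83.5) of WT against 80.3% (72.6 to 86.6) of VISTA-KO Siglech+ cells had a Cox6a2 UMI. Unthinned the shares were 88.7% and 89.1%. In thinned T cells, which should lack the gene, the shares were 0% to 0.248%, at median depths of 3922 to 8739 UMIs before thinning against 9181 and 9486 in Siglech+ cells. Cox6a1 was found in 45.9% and 41.6% of thinned Siglech+ cells and in 36.5% to 45.4% of thinned T cells. Cox6a2 was far higher in cells with 5 or more Siglech UMIs than in cells with none. Over all cells with at least 600 genes it was at 1314 CPM in WT against 1638 CPM in VISTA-KO in the former and at 0.490 and 0.618 CPM in the latter. Few cells lay between. The 15 WT and 11 VISTA-KO cells with 1 Siglech UMI held 1 and 9 Cox6a2 UMIs (8.10 CPM, 0.205 to 45.1, and 85.9 CPM, 39.3 to 163). The 9 and 6 cells with 2 to 4 Siglech UMIs held 28 and 6 (230 CPM, 153 to 332, and 123 CPM, 45.3 to 269). Of the Siglech+ cells without a Cd3d, Cd3e or Cd3g UMI, 12 of 127 in WT and 10 of 96 in VISTA-KO had no Cox6a2 UMI, and of those with one 13 of 94 and 5 of 42 had none. The other subunits with tissue forms used the common one in all kinds. In Siglech+ cells Cox7a2 was at 292 and 305 CPM against 1.95 and 0.699 CPM for Cox7a1, and Cox4i1 at 1167 and 1137 CPM against 0.391 and 0 CPM for Cox4i2. Cox8a was at 1008 and 961 CPM and Cox8b at 0 in both. Cox6a2 was 1.26 times as high in VISTA-KO as in WT Siglech+ cells (1.19 to 1.33), while T cell transcripts in these cells were lower in VISTA-KO (Cd3e at 210 against 401 CPM). In the Siglech+ cells without a Cd3d, Cd3e or Cd3g UMI the log2 ratio of Cox6a2 was 0.05, against 0.33 in all of them (with 5 CPM added), and it was 0.15 without dividing cells, 0.15 with each cell weighted equally and 0.22 with cells thinned.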

How the data were processed

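The authors prepared droplet libraries of sorted CD4+ and CD8+ tumor-infiltrating cells and aligned them with Cell Ranger 5.0.0 to a GRCm38 (mm10) reference, and the deposited matrices hold raw UMI counts per gene and cell for 1 WT and 1 VISTA-KO library. The labels name both 3′ and 5′ chemistry. The paper's methods name a single-cell V(D)J kit, with expression and receptor libraries aligned together, which points to 5′. Depth was 72098984 UMIs over 10337 barcodes in WT and 59916814 over 10085 in VISTA-KO, of which 113 and 139 had under 600 genes and were left out. Barcodes with Siglech were assigned first. UMIs were summed per library and cell kind and scaled to CPM over all UMIs of that kind. Genes entered with at least 20 CPM in 1 library, and the log2 ratios of single genes, with the counts and medians made from them, were taken after adding 5 CPM. Ratios printed with an interval, and those of sums, had nothing added. Cell kinds were compared by a fold of 1.5 in the same direction in both libraries. No test was possible with 1 library per genotype, so values carry exact Poisson, conditional or Clopper-Pearson intervals at the 95% level. No doublet caller was run, and cells with 2 or more productive beta chains, read from the receptor tables, were left out in an alternative.

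The members and lists were chosen with earlier results of these data known. Named genes are the 5 highest and 5 lowest members of each kind by ratio, the Sdh genes, the tissue forms, and the extremes in CD8 cells of the lists of mitochondrially encoded genes, assembly factors and carriers, the citrate cycle, regulators and the mitochondrial ribosome, with Cycs, Ppargc1a, Ppargc1b, Tfam and Myc. Other genes named were chosen after their values were seen. Alternatives changed the cell filter, the gates, the scaling, the gene filter, the amount added, the cells kept, the weight of cells and the depth. Leaving out Cox6a2 and leaving out cells with at least 3 melanoma marker UMIs were chosen after seeing the data. Promoters came from RefSeq tables of GRCm38.p6. The scripts ran in Python 3.11.15 with numpy 2.4.6, scipy 1.17.1 and pandas 2.3.3 and were tested on simulated data. The authors' own filter and integration in Seurat 4 were not used.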

Additional observations from a re-analysis of the deposited data

Results flagged for a closer look

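Cox6a2 UMIs were also found in cells that met none of the 4 gates and enter no comparison, listed here because their number exceeds the 3 that a count of 0 allows. The 1369 such WT cells held 7 Cox6a2 UMIs (1.29 CPM, where 3 UMIs make 0.551 CPM), and the 1264 such VISTA-KO cells held 14 (2.48 CPM, where 3 UMIs make 0.532 CPM). The T cell kinds exceed that limit too, with 4 to 19 UMIs at 0.285 to 1.17 CPM, so the WT value lies close to the highest level in T cells. The 84 nuclear respiratory chain genes took 2.01% and 2.15% of the UMIs of the cells outside the gates in WT and VISTA-KO.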

How the results depend on the processing

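No paired analysis was possible because each genotype is 1 pooled library, and for the same reason no replicate could be left out. Values below are log2 ratios of the summed respiratory chain genes unless a count is named, and the cause of a shift was not tested. Filters on mitochondrial share, on at least 1000 genes, on 50 CPM or on no minimum, and adding 20 CPM, moved none of the main results. Adding 1 CPM put 1 gene past the fold in conventional CD4 cells.

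VISTA-KO over WT kept its direction in conventional CD4, regulatory and Siglech+ cells in every alternative, and in CD8 cells in all but 1. In CD8 cells it was 0.01 with scaling by the median of ratios, -0.03 with scaling that left out mitochondrial, ribosomal and receptor genes, -0.05 without the largest clonotype, -0.03 without dividing cells, -0.04 with each cell weighted equally and -0.05 with cells thinned. In conventional CD4 cells it was -0.06 with stricter gates, -0.05 with the median of ratios, -0.04 without dividing cells, -0.04 with equal weights and -0.06 thinned. In regulatory cells it was -0.09 with the median of ratios, -0.14 without those gene classes, -0.09 without dividing cells and -0.09 thinned. In Siglech+ cells it was -0.02 and -0.07 under the 2 other scalings. With the median of ratios CD8 cells turned also for complex III (0.0016), complex IV (0.02) and the mitochondrially encoded genes (0.0048). Thinning turned complex V (0.01), Ndufa11 (0.05) and Ndufa4 (0.01) in Siglech+ cells.

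Conventional CD4 over CD8 cells, WT then VISTA-KO, was -0.17 and -0.20 with stricter gates, -0.13 and -0.19 with the median of ratios, -0.13 and -0.19 without the gene classes, -0.11 and -0.16 without the largest clonotype, -0.11 and -0.12 without dividing cells and -0.12 and -0.12 with equal weights, and -0.10 in VISTA-KO when thinned. Regulatory over CD8 cells was -0.05 and -0.13, -0.06 and -0.16, -0.08 and -0.20, and -0.04 and -0.11 under the first 4 of these, -0.09 in VISTA-KO without dividing cells, -0.01 and -0.08 with equal weights and -0.07 in VISTA-KO when thinned. Siglech+ over CD8 cells was 0.05 in WT with stricter gates, 0.09 and 0.06 with the median of ratios, -0.03 and -0.06 without the gene classes, 0.11 and 0.11 without dividing cells, 0.16 and 0.14 with equal weights and 0.08 and 0.10 thinned. The mitochondrially encoded sum of conventional CD4 over CD8 cells in WT turned to -0.0032 with stricter gates, -0.01 with the median of ratios, -0.01 without the gene classes, -0.005 without the largest clonotype, -0.01 without dividing cells, -0.02 with equal weights and -0.06 thinned.

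Genes past the fold in Siglech+ cells numbered 3 with stricter gates, 0 without the gene classes, 0 without cells with 2 or more beta chains, 2 with equal weights and 14 thinned. In conventional CD4 cells 1 was past it without the gene classes, and in regulatory cells 1 was without the gene classes, 1 without dividing cells and 4 thinned. Of the alternatives chosen after seeing the data, leaving out Cox6a2 put 0 past it in Siglech+ cells, with VISTA-KO over WT at -0.07 and Siglech+ over CD8 cells at -0.04 and -0.09. Leaving out cells with melanoma markers gave VISTA-KO over WT of -0.04 in CD8, -0.08 in conventional CD4 and -0.13 in regulatory cells, where 1 gene was past the fold, conventional CD4 over CD8 cells of -0.11 and -0.16, and Siglech+ over CD8 cells of 0.03 in VISTA-KO.

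Over all alternatives the number of members lower in VISTA-KO ran from 38 to 58 in CD8, 58 to 70 in conventional CD4, 58 to 72 in regulatory and 46 to 63 in Siglech+ cells. Shares over all genes were not counted under the alternatives. Siglech+ cells were the shallowest sum, with 2560423 and 1430496 UMIs.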
